A study of Arabidopsis thaliana with 12 samples.

Results

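LHCA1 (AT3G54890), LHCA2 (AT3G61470), LHCA3 (AT1G61520), LHCA4 (AT3G47470), LHCA5 (AT1G45474) and LHCA6 (AT1G19150) are the 6 genes of Arabidopsis thaliana that encode the light-harvesting antenna proteins of photosystem I. They were picked by locus, at a time when earlier results of these data were known. Every non-control probe assigned to one of these loci was taken, which gave 7 of the 37478 non-control probes, 2 for LHCA5 and 1 for each other gene. All 6 genes passed the filter on signal and are among the 20640 loci tested. The series compared whole seedlings of 3 genotypes on 12 Agilent arrays in a single colour, 4 arrays per genotype. The first genotype, 35S:GLK1-SRDX, carries a chimeric repressor, GLK1 fused to the SRDX repression domain and driven by the 35S promoter, which is active in most tissues. The second was the glk1 glk2 double mutant, and the third was wild type. All 3 groups shared the Columbia-0 ecotype, an age of 2 weeks, MS agar with 1% sucrose, 23 °C and 16 h of light with 8 h of darkness, and no treatment was applied. The labels do not say how many transgenic lines were used, or that replicates came from separate cultures, and p-values here cover only the variation among these arrays, which may be technical. Per the series title, the study concerned GLK chimeric repressors, stomatal closure and tolerance to an air pollutant.

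GLK1 and GLK2 are transcription factors known in Arabidopsis to promote chloroplast development and the expression of nuclear genes for light harvesting and chlorophyll synthesis. Photosystem I takes electrons from plastocyanin and passes them to ferredoxin, using light energy that its antenna collects. LHCA1 to LHCA4 are the abundant antenna proteins, bound as dimers to the photosystem I core, LHCA1 with LHCA4 and LHCA2 with LHCA3. LHCA5 and LHCA6 are minor proteins that link photosystem I to the chloroplast NDH complex, an enzyme of cyclic electron flow. All 6 are encoded in the nucleus and imported into chloroplasts.

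Values are log2 of the spot intensity relative to the 75th percentile of intensities on the same array, so a value of 0 lies at that percentile and a difference of 1 is a doubling. The 75th percentile ran from 1522 to 2480 intensity units, and 63.9% to 68.5% of probes were well above background. No spot was saturated, and all member probes were well above background on all 12 arrays. LHCA1, the brightest, reached 60.8% of the saturation value. LHCA1 to LHCA4 were read on all 12 arrays from a scan at lower detector gain, scaled up. LHCA6 was so read on all wild-type and GLK1-SRDX arrays. In glk1 glk2 it was so read on replicate 4 but not on replicates 1, 2 and 3. The brighter LHCA5 probe was so read only on wild-type replicates 1 and 4 and glk1 glk2 replicate 4. Whether both scans read alike was not tested. Genotypes were compared with limma across all 20640 loci, and "fell", "rose", "lower" and "higher" in counts refer to an adjusted p under 0.05. GLK2 (AT5G44190) was 7.51 log2 units lower in glk1 glk2 than in wild type (limma adjusted p = 5.12e-09) and GLK1 (AT2G20570) 2.23 lower (adjusted p = 0.00289). In GLK1-SRDX the GLK1 probe read 0.84 and the GLK2 probe 0.62 above wild type, without overlap of the arrays (limma adjusted p = 0.0662 and 0.0538). Each passed in 6 of 24 alternative fits, with values between 0.067 and 1.03 for GLK1 and between 0.28 and 0.81 for GLK2, both lowest with the level of the root markers as a covariate. In this line GLK1 is also the transgene, and whether that probe detects the transgene was not established. All 5 green tissue markers and 15 to 17 of 17 root markers were well above background on each array, as whole seedlings hold both tissues. The summed root-marker signal, in multiples of the 75th percentile, was 3.69 to 5.73 in GLK1-SRDX, 2.65 to 17.2 in glk1 glk2 and 11.5 to 17.6 in wild type. The glk1 glk2 and wild-type samples shared slides 1 and 2, with 2 arrays of each genotype per slide. The 4 GLK1-SRDX arrays made up slide 3, and an effect of that slide cannot be told apart from one of the transgene.

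In glk1 glk2 against wild type, LHCA1, LHCA2, LHCA3, LHCA4 and LHCA6 fell and LHCA5 did not pass the test. Thus 5 of the 6 genes were called lower, where 1.10% of all tested loci were (2.19% were higher). The falls ran from 1.46-fold for LHCA1 to 2.70-fold for LHCA6. In wild type LHCA1, LHCA3, LHCA4, LHCA2 and LHCA6 averaged 7.6, 7.4, 7.3, 6.6 and 4.0. Their falls grew in that order, from the brightest of these 5 probes to the dimmest (nearly equal for LHCA3 and LHCA4). LHCA5, dimmer still at 3.1 in wild type, did not follow this order, with a change of 0.05. Whether probes of unlike brightness respond alike to a change in RNA was not tested. The median log2 fold change of the 6 genes was -0.83, beside 0.0011 over all tested loci. The 4 glk1 glk2 arrays lay below all 4 wild-type arrays for the same 5 genes, which was so for 3.22% of loci. With normexp background correction LHCA2 alone of the 5 passed (limma adjusted p = 0.067 to 0.247 for the other 4), likewise with only these 2 genotypes in the fit (0.0694 to 0.142), and with median scaling LHCA2 and LHCA6 did (0.0535 to 0.18 for the other 3). These are whole-seedling RNAs, in which fewer chloroplast-bearing cells and less LHCA RNA per cell cannot be told apart.

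In GLK1-SRDX against wild type, 0 of the 6 genes were called by limma, where 14.3% of loci were called in either direction and 6.40% were called lower. All 6 fitted changes were below 0, from -0.33 for LHCA4 to -0.10 for LHCA1, with a median of -0.16 beside 0.0080 over all loci. LHCA4 alone had an unadjusted p under 0.05 (0.0369). The arrays of LHCA2 and LHCA4 did not overlap wild type, and 13.2% of loci had GLK1-SRDX arrays all below wild type. In GLK1-SRDX against glk1 glk2, a comparison whose fold changes use no wild-type value while its spread is estimated from all 12 arrays, 5 of the 6 genes were higher, where 5.55% of loci were called higher and 3.72% lower. These were again LHCA1, LHCA2, LHCA3, LHCA4 and LHCA6, from 1.36-fold for LHCA1 to 2.47-fold for LHCA6, and the arrays of the 2 lines did not overlap for any of the 5, which was so in this direction for 9.56% of loci.

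**Figure D1:**
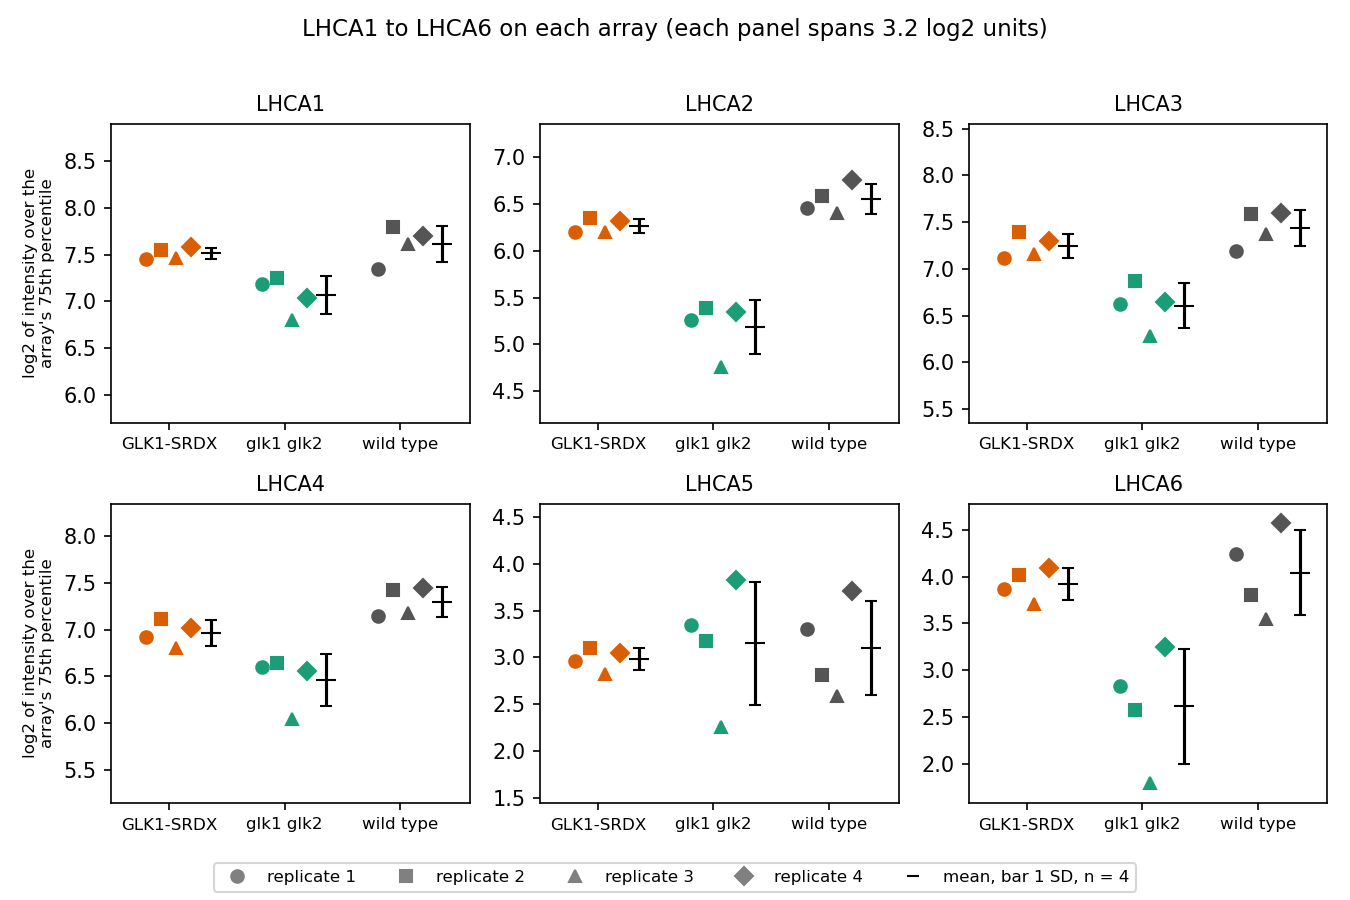
Log2 intensity of LHCA1 to LHCA6 relative to each array's 75th percentile, by genotype, with each array as a point, the replicate number as its shape, and the mean with 1 SD (n = 4) beside the points. The glk1 glk2 arrays lie below every wild-type array in all panels but that of LHCA5, and replicate 3 is the lowest glk1 glk2 array in all 6.

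**Figure D2:**
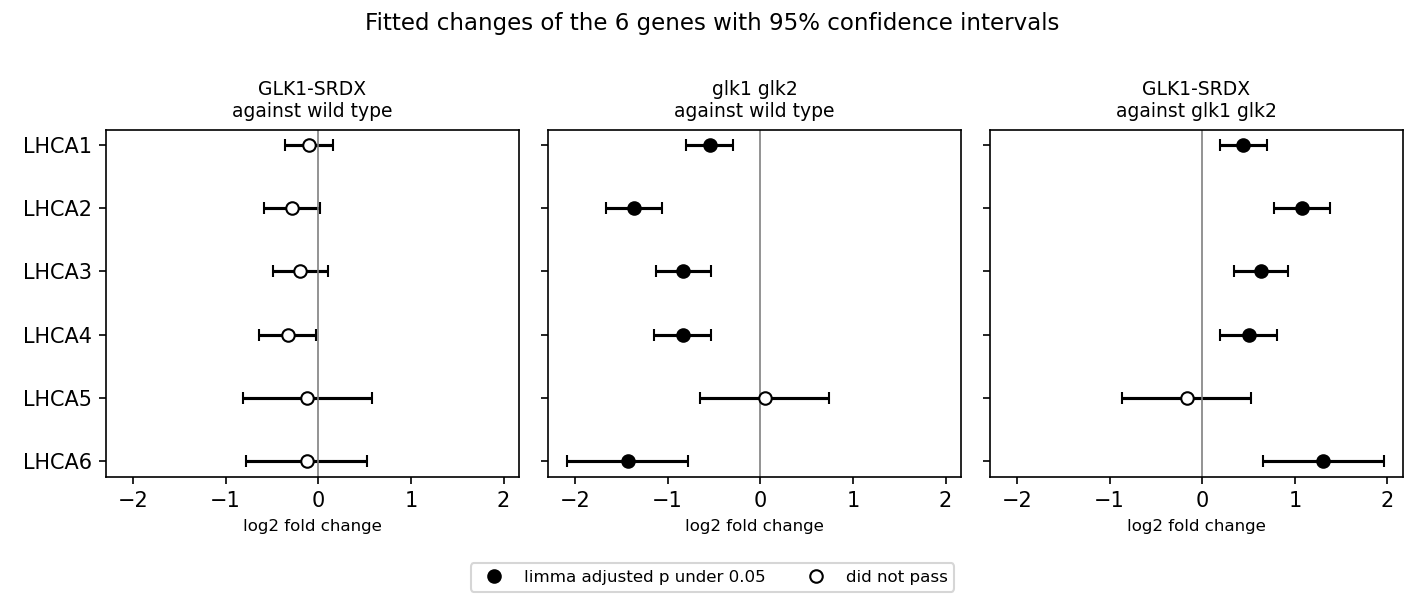
Fitted log2 fold change (x axis) of each gene (y axis) in the 3 comparisons, with 95% confidence intervals from limma and filled points for adjusted p under 0.05. The 5 filled points lie below 0 in glk1 glk2 against wild type and above 0 in GLK1-SRDX against glk1 glk2, and no point is filled in GLK1-SRDX against wild type.

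LHCA1 is the partner of LHCA4 in its antenna dimer and had the smallest fall. It read 7.45, 7.55, 7.47 and 7.58 on the 4 GLK1-SRDX arrays. On the glk1 glk2 arrays it read 7.19, 7.25, 6.80 and 7.03, and on the wild-type arrays 7.35, 7.79, 7.61 and 7.70. The highest glk1 glk2 array lay 0.10 below the lowest wild-type array, and the GLK1-SRDX arrays fell within the wild-type range. LHCA1 fell by 0.55 ± 0.12 (SE, n = 4 each) in glk1 glk2 (limma adjusted p = 0.0318). This SE, like the others from the fit of all 12 arrays, pools the spread of the 3 groups. The SD of LHCA1 was 0.06 in GLK1-SRDX, 0.20 in glk1 glk2 and 0.19 in wild type. Its change in GLK1-SRDX against wild type was -0.10 (95% interval -0.36 to 0.16, limma adjusted p = 0.598). GLK1-SRDX was 0.45 ± 0.12 above glk1 glk2 (limma adjusted p = 0.0381). The call against wild type was lost in 8 of the 12 fits that each left out an array, those without GLK1-SRDX replicate 2, 3 or 4, glk1 glk2 replicate 1 or 4, or wild-type replicate 2, 3 or 4 (limma adjusted p = 0.0504 to 0.094). The call between the lines was lost without any GLK1-SRDX array, glk1 glk2 replicate 1, 3 or 4, or wild-type replicate 3 (0.0537 to 0.0949). With the replicate number as a block, LHCA1 did not pass in glk1 glk2 against wild type (limma adjusted p = 0.0651).

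LHCA4 completes that dimer and fell further. It read 6.92, 7.12, 6.80 and 7.02 on the GLK1-SRDX arrays. The glk1 glk2 arrays gave 6.60, 6.64, 6.04 and 6.56 and the wild-type arrays 7.15, 7.42, 7.17 and 7.44. No 2 groups overlapped, with GLK1-SRDX between the others. LHCA4 fell by 0.84 ± 0.14 (SE) in glk1 glk2, a 1.78-fold decrease (limma adjusted p = 0.0118). The change in GLK1-SRDX against wild type was -0.33 (95% interval -0.64 to -0.024), which missed the threshold after adjustment (limma adjusted p = 0.135). It was past the threshold in the fit without glk1 glk2 replicate 3 (limma adjusted p = 0.0339), which leaves its fold change as it was and lowers the shared estimate of the spread. GLK1-SRDX was 0.50 ± 0.14 above glk1 glk2 (limma adjusted p = 0.0465). That call stood without glk1 glk2 replicate 3 (adjusted p = 0.0439) and was lost when any other single array was left out (0.0509 to 0.125).

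LHCA2, which pairs with LHCA3, was called in every alternative fit against glk1 glk2. It read 6.20, 6.35, 6.20 and 6.32 on the GLK1-SRDX arrays, 5.26, 5.39, 4.76 and 5.35 on the glk1 glk2 arrays and 6.46, 6.59, 6.41 and 6.76 on the wild-type arrays. The glk1 glk2 arrays stood well below all the rest, and the GLK1-SRDX arrays lay just under wild type without overlap. LHCA2 fell by 1.36 ± 0.14 (SE) in glk1 glk2, to 38.8% of its wild-type level (limma adjusted p = 0.000653). In GLK1-SRDX its change was -0.29 (95% interval -0.58 to 0.013, limma adjusted p = 0.181), past the threshold in the fit without glk1 glk2 replicate 3 (adjusted p = 0.0417). GLK1-SRDX stood 1.08 ± 0.14 above glk1 glk2, 2.11-fold (limma adjusted p = 0.00122). Both calls held without each array in turn.

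LHCA3, the dimer partner of LHCA2, read 7.12, 7.39, 7.16 and 7.30 on the GLK1-SRDX arrays. The glk1 glk2 arrays gave 6.63, 6.87, 6.28 and 6.65 and the wild-type arrays 7.19, 7.59, 7.37 and 7.60. Only glk1 glk2 stood apart, since the GLK1-SRDX and wild-type arrays overlapped. LHCA3 fell by 0.83 ± 0.13 (SE), 1.78-fold, in glk1 glk2 (limma adjusted p = 0.0101), and this call held without each array in turn. Its change in GLK1-SRDX was -0.20 (95% interval -0.49 to 0.10, limma adjusted p = 0.354). GLK1-SRDX was 0.64 ± 0.13 above glk1 glk2 (limma adjusted p = 0.0151), which became 0.0502 without GLK1-SRDX replicate 2.

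LHCA5 and LHCA6, the NDH linker proteins, were dimmer and varied more between replicates. Their residual SDs were 0.48 and 0.45 on the log2 scale, above 83.9% and 82.1% of loci, against 0.16 to 0.20 for LHCA1 to LHCA4. LHCA6 read 3.87, 4.02, 3.70 and 4.09 on the GLK1-SRDX arrays. On the glk1 glk2 arrays it read 2.83, 2.57, 1.79 and 3.25 and on the wild-type arrays 4.25, 3.80, 3.55 and 4.57. All glk1 glk2 arrays were below all others, and the GLK1-SRDX arrays fell within the wild-type range. LHCA6 had an SD of 0.17 in GLK1-SRDX, 0.62 in glk1 glk2 and 0.45 in wild type, which the SE pools. It fell by 1.43 ± 0.30 (SE), to 37.1% of its wild-type level, in glk1 glk2 (limma adjusted p = 0.0284). The call was lost without glk1 glk2 replicate 1 or 2 or wild-type replicate 1, 2 or 4 (adjusted p = 0.0609 to 0.0948). In GLK1-SRDX its change was -0.12 (95% interval -0.78 to 0.53, limma adjusted p = 0.818), and GLK1-SRDX stood 1.31 ± 0.30 above glk1 glk2 (limma adjusted p = 0.0207), lost without GLK1-SRDX replicate 1, 2 or 4 (0.0516 to 0.0578).

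LHCA5 read 2.96, 3.10, 2.83 and 3.05 on the GLK1-SRDX arrays. It read 3.35, 3.18, 2.26 and 3.83 on the glk1 glk2 arrays and 3.30, 2.81, 2.58 and 3.71 on the wild-type arrays. The 3 groups overlapped, and the GLK1-SRDX arrays were closer together than those of the other groups. Its change was 0.05 in glk1 glk2 (95% interval -0.65 to 0.75, limma adjusted p = 0.950) and -0.12 in GLK1-SRDX (-0.81 to 0.58, adjusted p = 0.840), both against wild type, and -0.17 in GLK1-SRDX against glk1 glk2 (adjusted p = 0.808). The fit with the replicate block, which pairs glk1 glk2 with wild type, gave the same 0.05 with an SE of 0.12, against 0.32 without the block (limma adjusted p = 0.791). These values do not show that LHCA5 was equal in the 3 genotypes. A second LHCA5 probe, annotated to another transcript model of the gene, gave 0.05 ± 0.33 (SE) in glk1 glk2 and -0.06 ± 0.33 in GLK1-SRDX (limma adjusted p = 0.952 and 0.926).

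The spread of LHCA5 and LHCA6 was shared between them on each array. Around its own wild-type mean, LHCA5 stood at 0.25, 0.07, -0.84 and 0.73 on the 4 glk1 glk2 arrays, and LHCA6 at -1.21, -1.47, -2.25 and -0.79. On the wild-type arrays LHCA5 stood at 0.20, -0.29, -0.52 and 0.61 and LHCA6 at 0.20, -0.24, -0.49 and 0.53. Both genes were highest on replicate 4 and lowest on replicate 3 in both of these groups. A large spread there was not particular to them. FD1, a ferredoxin gene, had an SD of 0.73 in glk1 glk2, 0.64 in wild type and 0.13 in GLK1-SRDX. Whether other genes shared the spread of LHCA5 and LHCA6 on each array was not tested. The within-array difference, LHCA5 minus LHCA6 with each around its wild-type mean, was 0.04, 0.02, 0.06 and -0.10 on the GLK1-SRDX arrays, 1.46, 1.54, 1.41 and 1.52 on the glk1 glk2 arrays and between -0.05 and 0.08 on the wild-type arrays. Its SD was 0.06 in glk1 glk2 and 0.06 in wild type, where the single genes had SDs of 0.62 to 0.66 and of 0.45 to 0.50. A scaling factor of an array cancels in this difference, while an offset between the scans at lower and higher gain need not. It was 1.48 higher in glk1 glk2 than in wild type (exact permutation p = 0.0286, 2-sided, the smallest that 70 arrangements of 4 against 4 arrays allow, and 0.0612 adjusted over 15 gene pairs). The permutation did not keep arrays of the same replicate number together as pairs. With the second LHCA5 probe the same difference averaged 1.48 ± 0.13 (SD, n = 4) in glk1 glk2, with a range of 1.29 to 1.57, against -0.08 to 0.07 in wild type.

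**Figure D3:**
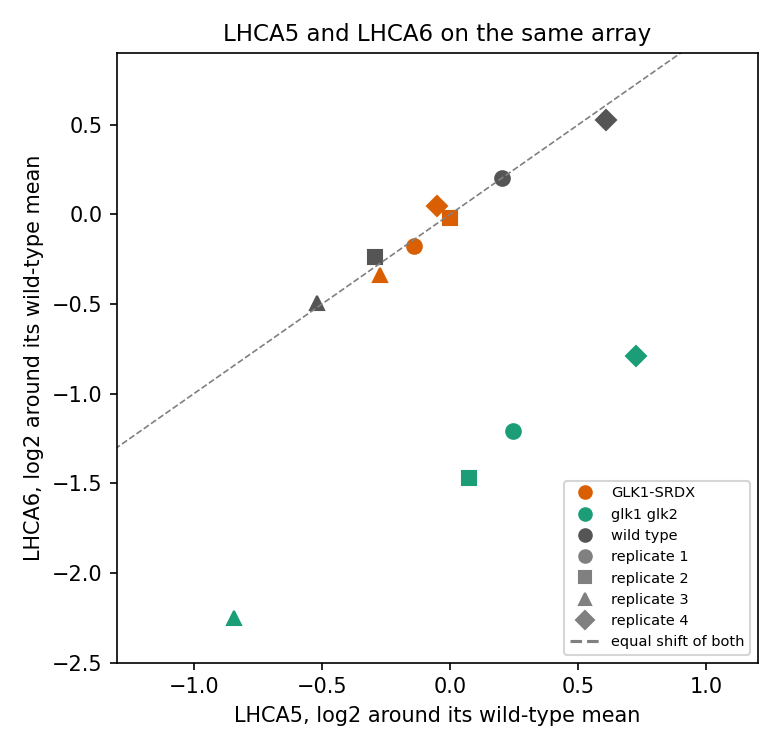
LHCA6 (y axis) against LHCA5 (x axis) on the same array, each as log2 around its own wild-type mean, with colour for genotype, shape for replicate number and a dashed line where both shift equally. The GLK1-SRDX and wild-type arrays lie along the line and the 4 glk1 glk2 arrays lie 1.41 to 1.54 below it.

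The other within-array differences tested whether genes changed unequally in glk1 glk2. The change of LHCA2 minus that of its partner LHCA3 was -0.53 (SD of the within-array difference 0.10 in glk1 glk2 and 0.12 in wild type). The change of LHCA1 minus that of its partner LHCA4 was 0.29 (SD 0.12 and 0.11). For LHCA3 minus LHCA4 it was 0.0045 (exact permutation p = 0.971). Of 15 pairs, 7 reached the smallest exact permutation p of 0.0286, and 0 passed after adjustment over the 15 pairs (lowest adjusted p = 0.0612). As no exact p can fall below 0.0286, a pair can pass the adjustment only where at least 9 of the 15 tie at that value, so the number that passed reflects the ties and is no measure of the evidence for a single pair. In GLK1-SRDX against wild type 1 pair reached that p, LHCA3 and LHCA4 (0.14, adjusted p = 0.286), and in GLK1-SRDX against glk1 glk2 10 of 15 pairs passed (exact permutation, adjusted p = 0.0429 each). Among those 10 pairs were LHCA2 minus LHCA3 (0.44) and LHCA5 minus LHCA6 (-1.48). LHCA1 minus LHCA4 was not among them (-0.06, adjusted p = 0.486).

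The glk1 glk2 replicate 3 array was the lowest of all 12 for each of the 6 genes. There LHCA2 stood at 28.9% and LHCA6 at 21.0% of the wild-type mean, where the other 3 glk1 glk2 arrays ranged from 40.7% to 44.5% for LHCA2 and from 36.1% to 57.8% for LHCA6. On the same array the green tissue markers had a median of -0.63 around wild type (0.02 to 0.30 on the other glk1 glk2 arrays) and the root markers 0.13 (-2.48 to -0.72). Without it the 5 genes remained lower in glk1 glk2, by 0.46 for LHCA1, 1.22 for LHCA2, 0.72 for LHCA3, 0.70 for LHCA4 and 1.16 for LHCA6 (limma adjusted p = 0.000209 to 0.0245). LHCA5 stood at 0.35 in that fit (limma adjusted p = 0.383). Another fit took as a covariate the mean of the 17 root markers on each array, each marker centred on its mean over the 12 arrays. In it the changes in glk1 glk2 were -0.64 for LHCA1, -1.59 for LHCA2, -0.996 for LHCA3, -1.04 for LHCA4 and -1.93 for LHCA6 (limma adjusted p = 0.000188 to 0.048). LHCA5 stood at -0.51 (limma adjusted p = 0.375). In GLK1-SRDX the covariate moved LHCA2 to -0.61 (limma adjusted p = 0.0329) and LHCA4 to -0.63 (0.0435), while LHCA5 at -0.93 and LHCA6 at -0.86 did not pass (0.0951 and 0.112). Of the root markers 8 of 17 were lower in GLK1-SRDX (6.40% of all loci were), with a median of -1.49. In glk1 glk2 0 of 17 were lower (1.10% of all loci were), with a median of -1.14 and 9 at an unadjusted p under 0.05. Of the green tissue markers 1 of 5, CA1, was lower in GLK1-SRDX, by 1.10, and 0 were in glk1 glk2, where 1 had an unadjusted p under 0.05 (CA1, at -0.74). The median of the 5 was -0.08 in GLK1-SRDX and 0.10 in glk1 glk2, both against wild type. The part of tissue makeup in the LHCA results was not tested beyond these values.

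The falls were present within each slide that held both genotypes. On slide 1 the difference of glk1 glk2 from wild type was -0.35 for LHCA1, -1.20 for LHCA2, -0.64 for LHCA3, -0.66 for LHCA4 and -1.32 for LHCA6, with 2 arrays per genotype. On slide 2 it was -0.74, -1.53, -1.02, -1.01 and -1.54 for the same genes. LHCA5 stood at 0.20 on slide 1 and -0.10 on slide 2. With slide as a fixed block all 5 calls held, at limma adjusted p from 0.00177 for LHCA2 to 0.0396 for LHCA6. Among same-numbered arrays, each of the 5 genes was lower in glk1 glk2 in 4 of 4 pairs, LHCA6 by 1.23 to 1.76 and LHCA1 by 0.17 to 0.81, and LHCA5 was lower in 1 of 4.

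Of 12 nuclear genes of the photosystem I core, which the LHCA proteins serve, 9 fell and 0 rose in glk1 glk2 (median -1.01). Of all loci 1.10% fell and 2.19% rose there. The other 3 core genes, PSAF, PSAN and PSAO, stood at -0.28, -0.41 and -0.65 and did not pass (limma adjusted p = 0.0789 to 0.265). PSAE2, a stromal subunit near the ferredoxin docking site, fell by 2.24 (limma adjusted p = 8.84e-06) and PSAH2 by 1.88 (adjusted p = 0.0136). PSAH belongs to the side of the core opposite the LHCA belt. None of the 12 core genes passed in GLK1-SRDX against wild type (median -0.27, 4 at an unadjusted p under 0.05). Against glk1 glk2 7 were higher (median 0.77), where 5.55% of all loci were. PSAE2 was higher by 1.89 (limma adjusted p = 2.25e-05) and PSAH2 by 1.75 (adjusted p = 0.00831). Of 6 genes for electron partners of photosystem I, PETE1, a plastocyanin, fell by 1.35 in glk1 glk2 (limma adjusted p = 0.00121) and was 1.39 higher in GLK1-SRDX than in glk1 glk2, and the other 5 did not pass in any of the 3 comparisons.

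The photosystem II antenna, the LHCB family related to LHCA, had 11 of 14 genes lower in glk1 glk2 (median -0.91), where 1.10% of all loci were. LHCB1.4 fell by 7.87 (limma adjusted p = 3.29e-09) and LHCB2.3 by 2.68 (adjusted p = 0.0325, lost without GLK1-SRDX replicate 1 or 2, glk1 glk2 replicate 1 or 2, or wild-type replicate 1, 2 or 4 at 0.0505 to 0.104). The other LHCB1 genes stood between -0.79 and -0.25 in glk1 glk2, and what sets the LHCB1.4 probe apart was not tested. LHCB genes are close copies of each other, and cross-hybridisation of their probes was not assessed here. LHCB4.3 was the 1 of 14 lower in GLK1-SRDX than in wild type (-1.51, adjusted p = 0.000742). Against glk1 glk2 7 were higher in GLK1-SRDX (5.55% of all loci were), LHCB1.4 by 7.75 and LHCB4.2 by 2.21. LHCB4.3 was lower (-0.72, limma adjusted p = 0.0378). In glk1 glk2 the changes of the LHCA genes ran from -1.43 to 0.05 and those of the LHCB genes from -7.87 to -0.25, and the difference between the families was not tested.

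The NDH complex, to which LHCA5 and LHCA6 tether photosystem I, had 16 of 17 listed genes measured, and NDHM was not analysed here, since no probe carried its locus. None was called by limma in glk1 glk2 (median -0.10, 1 at an unadjusted p under 0.05), with changes from -0.53 to 0.38. LHCA6 stood at -1.43 there and LHCA5 at 0.05, within that range. The difference of the NDH genes from these 2 was not tested. In GLK1-SRDX 1 of 16, NDHU, was lower than in wild type (-0.89, limma adjusted p = 0.0177) and lower than in glk1 glk2 (-0.84, adjusted p = 0.0267). The first call was lost without GLK1-SRDX replicate 1 or 3 or wild-type replicate 1 (0.0505 to 0.0521) and the second without GLK1-SRDX replicate 1, 2 or 3 or glk1 glk2 replicate 1, 2 or 4 (0.0502 to 0.0832). Of 5 genes that target antenna proteins to the thylakoid membrane and of 3 photosystem I assembly genes, 0 passed limma in any of the 3 comparisons. Their medians in glk1 glk2 were -0.03 and 0.02, and in GLK1-SRDX against wild type 0.17 and 0.34. At an unadjusted p under 0.05 there were 0 and 0 in glk1 glk2, 1 and 1 in GLK1-SRDX against wild type, and 1 and 0 between the lines.

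**Figure D4:**
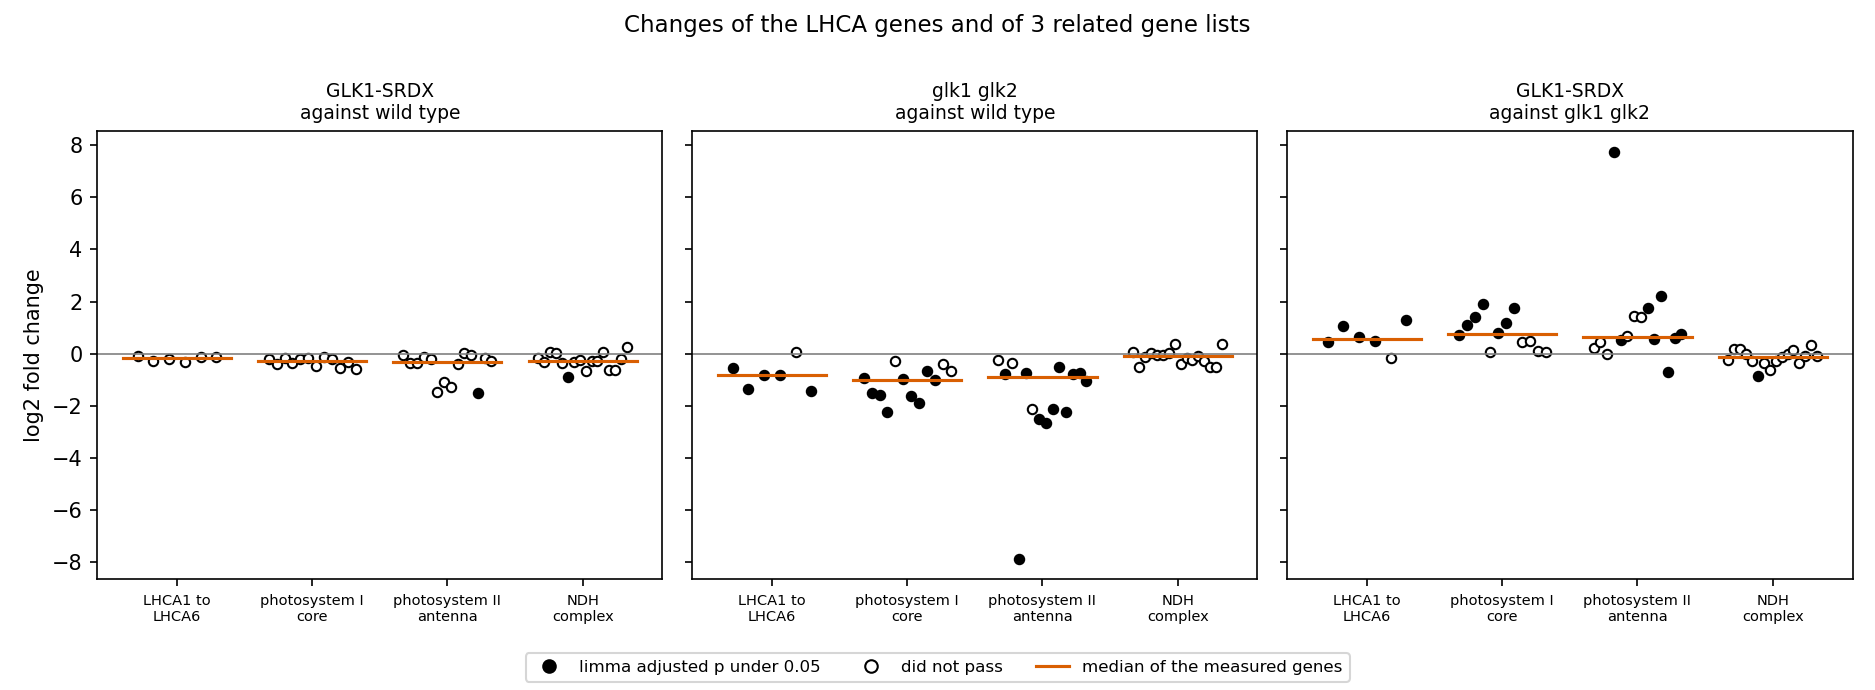
Log2 fold changes (y axis) of LHCA1 to LHCA6 and of 3 gene lists (x axis) in the 3 comparisons, each gene a point, filled where the limma adjusted p was under 0.05, with an orange line at the list's median. In glk1 glk2 against wild type the medians are -0.83 for the LHCA genes, -1.01 for the core, -0.91 for the photosystem II antenna and -0.10 for the NDH complex.

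Genes were ranked by how closely their values, around the wild-type mean, followed the median of the 6 LHCA genes over the 12 arrays. The measure was the root-mean-square difference on the log2 scale among 9080 tested loci with a symbol. LHCA3 and LHCA4 themselves stood at 0.06 and 0.10 from that median, which is made from the values of the 6 genes, so their distances are no test. LHCA1, LHCA2, LHCA6 and LHCA5 were further off, at 0.19, 0.32, 0.46 and 0.61. The nearest other genes were LHCB5, an antenna protein of photosystem II (0.08), PSAD1 and PSAG, subunits of the photosystem I core (0.10 and 0.11), LHCB1.5 (0.12) and PSBP-1, a subunit of the oxygen-evolving complex (0.12). The choice fixes how these genes moved, so their values are a description with no test. In glk1 glk2 against wild type they stood at -0.73, -0.94, -0.99, -0.75 and -0.77, and in GLK1-SRDX against wild type between -0.22 and -0.15.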

How the data were processed

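The authors deposited 1 scanner file per array, with spot intensity on a linear scale. The software was Agilent Feature Extraction, version 9.1.3.1 according to the submitters' processing notes. It subtracted the background with spatial detrending, per the file headers. The authors' series value table, also intensity, was used as an alternative. Control spots, and the 6 to 86 spots on an array that were marked as outliers, were removed. Log2 intensity was set relative to each array's 75th percentile. Probes well above background on at least 4 of 12 arrays and unmarked on at least 3 arrays per group were kept, and the brightest stood for a locus (20640 of 25665). limma 3.58.1 in R 4.3.3 fitted all 12 arrays (9 residual degrees of freedom, 2-sided, Benjamini-Hochberg over all loci, threshold 0.05). The fit was tested on simulated data. Gene pairs were compared by exact permutation, which did not keep same-numbered arrays paired. Symbols came from RefSeq (TAIR10.1), used for names only. Precision is limited by the number of arrays (median SE 0.143).

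The member genes, gene lists and tests were chosen with earlier results of these data known. The text names all 6 members, GLK1 and GLK2, up to 2 passing genes per list and comparison, and the 5 nearest genes. CA1, FD1, NDHM, PSAF, PSAN and PSAO, and the genes of the pairs given, were named after their values were seen. Samples were grouped by title. Same-numbered glk1 glk2 and wild-type arrays deviated together (correlations 0.319, 0.383, 0.464 and 0.757 over loci). Arrays of these genotypes with unlike numbers had correlations of -0.578 to 0.295. Same-numbered GLK1-SRDX arrays did not deviate together with the others (-0.2 to 0.261 with wild type and -0.096 to 0.577 with glk1 glk2). The pairing of glk1 glk2 with wild type was thus inferred from these data. The main fit did not use it, and the fit with the replicate block did. Normexp used the median spot signal, because a mean signal is not in the columns used here. Alternatives were normexp, median and quantile scaling, the filter, the series table, the mean of all probes, the replicate block, slide, a root-marker covariate and leaving out each array.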

Additional observations from a re-analysis of the deposited data

Results flagged for a closer look

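LHCA4 was flagged because glk1 glk2 replicate 3 (6.04) stood far below the other 3 arrays of its group, and the same array stood apart for LHCB5 (5.98) and NDHU (1.34). Wild-type replicate 3 stood apart for PETE1 (4.82). These were 4 of 66 groups of 4 arrays examined by Dixon's criterion, and chance flags about 1 in 20 groups. LHCA4 without that array is given with the results above.

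The effects of the 2 genotypes differed, by the direct limma test of GLK1-SRDX against glk1 glk2, for LHCA1 (0.45), LHCA2 (1.08), LHCA3 (0.64), LHCA4 (0.50) and LHCA6 (1.31). The same test passed for GLK1 (3.07) and GLK2 (8.13), for PSAE2 (1.89), PSAH2 (1.75), PSAD1 (0.73) and PSAG (0.81) of the photosystem I core, for PETE1 (1.39), and for LHCB1.4 (7.75), LHCB4.2 (2.21), LHCB5 (0.58) and LHCB1.5 (0.53). It passed with GLK1-SRDX lower for LHCB4.3 (-0.72) and NDHU (-0.84). PSAD1, PSAG, LHCB5 and LHCB1.5 were also picked for following the median of the LHCA genes over these arrays, so for them this is a description. Slide cannot be told apart from GLK1-SRDX in this test.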

How the results depend on the processing

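Of the calls of LHCA1, LHCA2, LHCA3, LHCA4 and LHCA6 in glk1 glk2 against wild type, 0 changed direction in any of 25 alternatives, and LHCA2 stayed past the threshold in all 25 (limma adjusted p up to 0.0181) and in all 24 of GLK1-SRDX against glk1 glk2 (up to 0.0301). In glk1 glk2 LHCA1 passed in 13 of 25, LHCA3 and LHCA4 in 22 each and LHCA6 in 18. Between the lines LHCA1 passed in 11 of 24, LHCA3 in 21, LHCA4 in 8 and LHCA6 in 20. The count of the 6 genes called in glk1 glk2 (5) was 1 with normexp, 2 with median scaling, 1 with only the 2 groups in the fit and 3 to 5 over single arrays left out, lowest without glk1 glk2 replicate 1, wild-type replicate 2 or wild-type replicate 4. Between the lines (5) it was 1 with normexp, 2 with median scaling, 3 without a filter, 3 with the replicate block, 3 with only the 2 groups and 1 to 4 over single arrays left out (1 without GLK1-SRDX replicate 2, 2 without GLK1-SRDX replicate 1 or 4, 3 without GLK1-SRDX replicate 3, glk1 glk2 replicate 1 or 4 or wild-type replicate 3). GLK1-SRDX numbers do not pair with the others, and the block there left LHCA1 at an adjusted p of 0.0957 and LHCA4 at 0.0735. In GLK1-SRDX against wild type (0) it was 2 with the root-marker covariate and 0 to 2 over single arrays left out (2 without glk1 glk2 replicate 3). The replicate block changed no other call of the 6 genes than these and that of LHCA1 given with the results. Causes were not tested.

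All loci called in glk1 glk2 (681) were 1420 with the replicate block, 146 with normexp, 1944 with median scaling, 136 in the series table as deposited, 115 with only the 2 groups and 252 to 3222 over single arrays left out (3222 without glk1 glk2 replicate 3, and 252 to 417 without GLK1-SRDX replicate 2, glk1 glk2 replicate 1 or 2, or wild-type replicate 1, 2 or 4). For GLK1-SRDX against wild type (2948) they were 898 with normexp, 4712 with median scaling, 909 in the series table and 1502 to 4420 (1502 to 1809 without GLK1-SRDX replicate 1, 2 or 3 or wild-type replicate 1 or 2). Between the lines (1913) they were 294 with normexp, 1205 with median scaling, 715 with the replicate block, 1262 with only the 2 groups, 3398 with the covariate and 996 to 2676 (996 to 1107 without GLK1-SRDX replicate 1, 2 or 3 or glk1 glk2 replicate 1). Median scaling moved the median of all loci to 0.20 in both comparisons with wild type, and the series table, used as deposited, to -0.19, 0.11 and 0.28 in glk1 glk2, GLK1-SRDX and between the lines. The share of calls that were higher, 66.5% in glk1 glk2, was 91.5% with median scaling and 2.94% in the series table. It was also 33.9% with only the 2 groups and 43.1% without glk1 glk2 replicate 3. In GLK1-SRDX against wild type it was 79.9% with median scaling (55.2% as reported). There it was 45.1% with the replicate block, 47.1% with only the 2 groups and 49.2% without glk1 glk2 replicate 3. Between the lines it was 90.5% in the series table (59.9% as reported).

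Changes of direction occurred among values that had not passed. LHCA5 in glk1 glk2 was -0.043 with quantile normalization, -0.14 in the series table, -0.51 with the covariate, and -0.17 to 0.35 over single arrays left out, below 0 without glk1 glk2 replicate 1 or 4 or wild-type replicate 2 or 3. LHCA1 in GLK1-SRDX against wild type was 0.13 with normexp, 0.087 with median scaling, 0.052 with quantile normalization and 0.0033 in the series table. LHCA6 there was 0.056 with normexp, 0.065 with median scaling and -0.29 to 0.053 over single arrays left out, above 0 without wild-type replicate 4. LHCA5 there was 0.072 with median scaling and -0.29 to 0.086 over single arrays left out, above 0 without wild-type replicate 4. With median scaling LHCB5 was 0.039 and PSAG 0.0042. Between the lines LHCA5 was 0.12 in the series table and -0.47 to 0.058 over single arrays left out, above 0 without glk1 glk2 replicate 4. The 7 probes were well above background on all arrays, and the dimmer LHCA5 and LHCA6 had residual SDs of 0.48 and 0.45, against 0.16 to 0.20 for the others. What limited the values that did not pass was not tested.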
